A study of Mus musculus with 2 samples.

Results

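The genes of the CDK inhibitors, p53 and RB form the brake that holds a cell before DNA replication. The members were taken by symbol: the CIP/KIP inhibitors Cdkn1a, Cdkn1b and Cdkn1c, the INK4 inhibitors Cdkn2a, Cdkn2b, Cdkn2c and Cdkn2d, and Trp53 and Rb1. All 9 were among the 14694 genes of the table, and all 9 passed the minimum of 50 reads over both libraries. RNA was sequenced from 1 library labelled IR and 1 labelled NC, both numbered 4 and both labelled mouse lung fibroblasts, the cells that deposit the matrix of the lung. The labels do not spell out IR or NC, and give no radiation dose, time, strain, genotype or agent (rosmarinic acid, which the series tests, included), and no statement of whether the cells were a line or a primary culture. The series concerns lung fibrosis after irradiation and the change of fibroblasts into contractile, matrix-making myofibroblasts. The labelled protocol describes spinning and filtering culture supernatants, and the labels leave unsaid whether cells or vesicles were the source of the RNA.

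Cyclin-dependent kinases drive the cell cycle when a cyclin is bound to them. INK4 proteins bind Cdk4 and Cdk6 and keep D-type cyclins away, whereas CIP/KIP proteins bind assembled cyclin-kinase complexes, among them those of Cdk2. Unchecked, these kinases phosphorylate RB, which then releases E2F transcription factors and lets the genes of DNA replication be transcribed. p53, made stable by DNA damage such as that from ionising radiation, switches on Cdkn1a, and Arf, a second protein encoded by Cdkn2a, shields p53 from its ubiquitin ligase Mdm2. Lasting expression of Cdkn1a and Cdkn2a is a known feature of senescent fibroblasts.

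The promoter sequences of Cdkn1a, Cdkn2a and Cdkn1b show how differently the starts printed below are built. RefSeq sequences on GRCm38.p6 matched 7 members with 10 transcription starts, and no entry was matched for Cdkn1c and Rb1. The 250 bases before each start were searched on both strands for a GC box (GGGCGG), for an E2F site (TTTCCCGC, TTTGGCGC, TTTCGCGC or TTTGCCGC) and for a p53 site. A p53 site was counted as a pair of adjoining half-sites of the p53 consensus, 20 bases with at most 1 mismatch. This last search was added after the sequence had been read. GC boxes can overlap one another in GC-rich runs, and a match is a description of letters. Capitals below mark the p53 site, the GC boxes and the E2F site, and bases inside annotated exons were left off the ends. The first line is the upstream start of Cdkn1a on the plus strand (chr17:29090729-29090975), shown for its p53 site. The downstream start of Cdkn1a held 2 GC boxes and is not printed, since its 250 bases all lie in annotated exons. The next pair of lines are the starts of Cdkn2a on the minus strand, that of the Arf transcript (chr4:89294654-89294869) and that of the p16 transcript (chr4:89282193-89282442). The last is Cdkn1b on the plus strand (chr6:134920151-134920400), which was lower in the IR library.
Cdkn1a: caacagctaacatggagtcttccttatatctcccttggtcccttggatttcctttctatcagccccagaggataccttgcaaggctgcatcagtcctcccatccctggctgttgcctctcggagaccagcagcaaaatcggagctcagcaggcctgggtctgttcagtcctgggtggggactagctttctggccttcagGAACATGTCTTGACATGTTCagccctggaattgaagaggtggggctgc
Cdkn2a, Arf start: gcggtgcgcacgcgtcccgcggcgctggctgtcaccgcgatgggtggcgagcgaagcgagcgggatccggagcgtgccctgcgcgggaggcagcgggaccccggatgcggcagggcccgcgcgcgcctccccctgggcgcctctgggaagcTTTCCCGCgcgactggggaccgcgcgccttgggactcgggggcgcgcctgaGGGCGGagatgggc
Cdkn2a, p16 start: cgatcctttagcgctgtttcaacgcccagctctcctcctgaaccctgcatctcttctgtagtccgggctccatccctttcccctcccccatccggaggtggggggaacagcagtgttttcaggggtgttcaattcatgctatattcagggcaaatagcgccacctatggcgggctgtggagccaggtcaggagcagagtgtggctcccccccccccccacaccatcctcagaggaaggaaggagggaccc
Cdkn1b: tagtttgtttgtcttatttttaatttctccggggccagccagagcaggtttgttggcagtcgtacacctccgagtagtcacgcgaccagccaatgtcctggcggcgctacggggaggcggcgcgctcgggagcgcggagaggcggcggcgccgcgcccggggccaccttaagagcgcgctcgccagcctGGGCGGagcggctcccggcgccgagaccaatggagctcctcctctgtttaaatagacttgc

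The p53 site of Cdkn1a began 51 bases before its upstream start and 2841 bases before its downstream start, with 1 mismatch to the consensus. Such a site was found in 0.0761% of the 32851 mouse promoters searched, 25 in all, and at no other start of the members. The rule for the site was set after the Cdkn1a sequence had been read, so this share is a description and no independent background. An E2F site was found at 1 of the 10 starts, that of Arf, 99 bases before it, against 1.86% of all promoters. GC boxes were found at 5 of the 10 starts, against 32.7% of all promoters. Of the other motifs searched, at least 1 p53 half-site was at 3 starts (7.13% of all promoters), CCAAT at 3 (33.8%), TATAAA at 1 (12.4%) and the FOXO motif GTAAACA at 0 (3.17%). At the p16 start none of these motifs was found within the 250 bases, although both Cdkn2a transcripts end in the same exons. The 2 annotated transcripts share 575 of the 1172 exon bases of the gene (49.1%), and the table gives 1 count for both, so p16 and Arf cannot be told apart in these data.

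The libraries held 35219511 counted reads in IR and 36084512 in NC, with reads on 13902 and 13954 genes. Of 12 fibroblast markers 10 were in the table under the listed symbol, without Thy1 and Lum. Reads were found for 10 in IR and for 9 in NC, where Fap had 0 reads. The sums were 4952 CPM (counts scaled to library size) in IR and 5760 CPM in NC. The largest part came from Vim in IR (44.3%) and from Fn1 in NC (42.9%). Of 10 epithelial markers 4 were in the table, with sums of 2.87 CPM in the IR library and 1.84 CPM in the NC library. Markers missing from the table add nothing to a sum, so a low sum is no measure of the whole list. All 5 endothelial markers were in the table, with sums of 4.70 and 4.36 CPM. Vwf supplied 42.7% of the endothelial reads in IR and 62.3% in NC, where Pecam1 and Tek had 0 reads. Of 7 leukocyte and macrophage markers 4 were in the table, with sums of 83.5 and 60.3 CPM, of which Cd68 supplied 99.7% and 99.6%. Smooth muscle and pericyte markers, all 5 in the table, came to 27.0 and 22.3 CPM. Erythroid markers, 3 of 5 in the table, came to 0.344 and 0.275 CPM. Mesothelial markers differed most, with 97.8 CPM in IR against 197 CPM in NC, nearly all from Msln. Of the 4 listed 2 were in the table, without Wt1 and Lrrn4. The part of these cell types in the results below was not tested. Since IR and NC are 1 library each, nothing could be replicated or tested: the statements compare these libraries, not the conditions. In bulk RNA, fewer cells of a type and less RNA per cell cannot be told apart. Log2 ratios are of IR over NC, and their 95% counting intervals cover counting error only, since the labels name no molecular identifiers and copies made by PCR are not independent molecules.

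Cdkn1a and Cdkn2a were abundant in both libraries, while Trp53 and Rb1 were scarce. The IR library had more Cdkn1a and less Cdkn1b, Cdkn2c and Trp53 than the NC library, and Cdkn2b, Cdkn2d, Cdkn1c and Rb1 did not differ beyond counting error. The interval lay above 0 for 2 of the 9 members, against 31.2% of the 10921 genes compared, and below 0 for 3 members, against 32.4% of those genes. Either way it excluded 0 for 5 members and for 63.6% of all genes. None of the 9 was at least 2-fold different, where 3.42% of all compared genes were, 1.6% higher and 1.82% lower in IR. At 1.5-fold, 2 members were lower in IR, Cdkn2c and Trp53, where 6.9% of all genes were, and 0 were higher, where 6.09% of all genes were (13.0% in either direction). The median log2 ratio was -0.000596 over the members and -0.00686 over all compared genes. The members went both ways, from -0.78 to 0.34, and their mean was -0.15, so the median is the value of 1 gene, Cdkn2b, and does not stand for the list. Together the 9 genes took 0.200% of all counted reads in IR and 0.177% in NC.

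**Figure D1:**
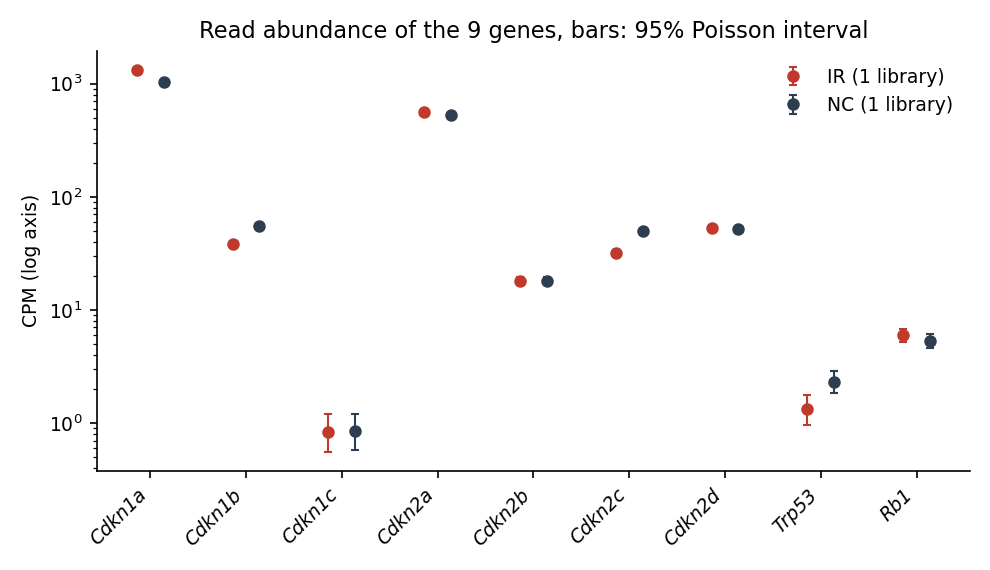
Abundance of the 9 genes in CPM (log axis) in the IR library (red) and the NC library (dark), 1 library each, with exact 95% Poisson intervals that are narrower than the symbol where reads are many. Cdkn1a stands at 1312 CPM in IR against 1038 CPM in NC, far above Cdkn1c at 0.831 and 0.851 CPM.

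Cdkn1a encodes p21, the CIP/KIP inhibitor through which p53 stops the cycle. It had 45774 reads in IR and 37825 in NC, or 1312 CPM (interval 1300 to 1324) and 1038 CPM (1028 to 1049). It was 1.26-fold higher in the IR library, with a log2 ratio of 0.34 (interval 0.32 to 0.36). The reads are many and the interval is narrow, but 33.7% of all compared genes had a ratio at least as far from 0. The gene lies on chromosome 17 at 29090976 to 29100727 (GRCm38), and 7.68% of its exon sequence overlaps another annotated gene.

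Cdkn1b encodes p27, which holds resting cells out of the cycle and is cleared from cells that enter it. It had 1329 reads in IR against 2000 in NC, which is 38.1 CPM (36.1 to 40.2) and 54.9 CPM (52.5 to 57.4). It was thus 1.44-fold lower in IR, with a log2 ratio of -0.53 (interval -0.63 to -0.43), opposite in direction to Cdkn1a. A ratio at least as far from 0 was found for 16.5% of compared genes. Cdkn1b lies on chromosome 6 at 134920401 to 134925513, and none of its exon sequence overlaps another gene.

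Cdkn1c encodes p57, an inhibitor from an imprinted gene that acts mostly in development. Its reads were few, 29 in IR against 31 in NC (0.831 CPM, interval 0.557 to 1.19, and 0.851 CPM, interval 0.578 to 1.21). The log2 ratio of -0.03 had an interval from -0.82 to 0.74, so a difference smaller than these bounds was not detectable at this depth. Another gene, Gm44732, overlaps 30.7% of its exon sequence, which makes even these reads uncertain. The gene lies on chromosome 7 at 143458339 to 143461050.

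Cdkn2a, the gene of p16 and Arf, was nearly level between the libraries. It had 19441 reads in IR and 19334 in NC, or 557 CPM (549 to 565) and 531 CPM (523 to 538). The log2 ratio was 0.07 (interval 0.04 to 0.10), a 1.05-fold difference that 83.1% of compared genes equalled or passed. After centring on transcript length and GC content the ratio was -0.08 (interval -0.11 to -0.05), so the direction of this small difference depends on the processing. It lies on chromosome 4 at 89274471 to 89294653.

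Cdkn2b, the gene of p15, stands beside Cdkn2a on chromosome 4 at 89306299 to 89311039. p15 is the INK4 protein that TGF-beta induces in epithelial cells. Its reads numbered 627 in IR and 655 in NC, and its abundance was 18.0 CPM in both libraries (interval 16.6 to 19.4 in each). The log2 ratio was -0.000596 (interval -0.16 to 0.16).

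Cdkn2c and Cdkn2d encode p18 and p19 of the INK4 class, proteins known from development and from the regular cell cycle. Cdkn2c, on chromosome 4 at 109660876 to 109667189, had 1111 reads in IR and 1806 in NC. Its abundance was 31.8 CPM (30.0 to 33.8) in IR against 49.6 CPM (47.3 to 51.9) in NC, a log2 ratio of -0.64 (interval -0.75 to -0.53). It was 1.56-fold lower in IR, the lowest ratio among the inhibitors, and 11.2% of compared genes had a ratio as far from 0. Cdkn2d, on chromosome 9 at 21288410 to 21291407, had 1840 reads in IR and 1909 in NC, or 52.7 and 52.4 CPM. Its log2 ratio of 0.01 (interval -0.08 to 0.10) set it apart from Cdkn2c, since the 2 intervals do not overlap.

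Trp53, the gene of p53, was among the scarcest members. It had 46 reads in IR and 84 in NC, which is 1.32 CPM (0.965 to 1.76) and 2.31 CPM (1.84 to 2.85). It was 1.72-fold lower in IR, with a log2 ratio of -0.78, the lowest of the 9, but with a wide interval from -1.36 to -0.27. A ratio as far from 0 was found for 6.77% of compared genes. The gene lies on chromosome 11 at 69580359 to 69591873, and 3.95% of its 50-base words also occur in other annotated transcripts, among them the pseudogene Trp53-ps. Loss of reads to that pseudogene was not tested beyond this share.

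Rb1, the gene of the retinoblastoma protein and the substrate on which these kinases converge, had 208 reads in IR and 193 in NC. Its abundance was 5.96 CPM (5.18 to 6.83) in IR against 5.30 CPM (4.58 to 6.10) in NC. The log2 ratio of 0.17 had an interval that held 0 (-0.12 to 0.46). The gene spans 73183673 to 73325822 on chromosome 14, and 14.9% of its exon sequence overlaps Lpar6 or Rcbtb2 on either strand. The strand setting is not given, so whether reads there were counted for Rb1, for a neighbour or for neither is not known.

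**Figure D2:**
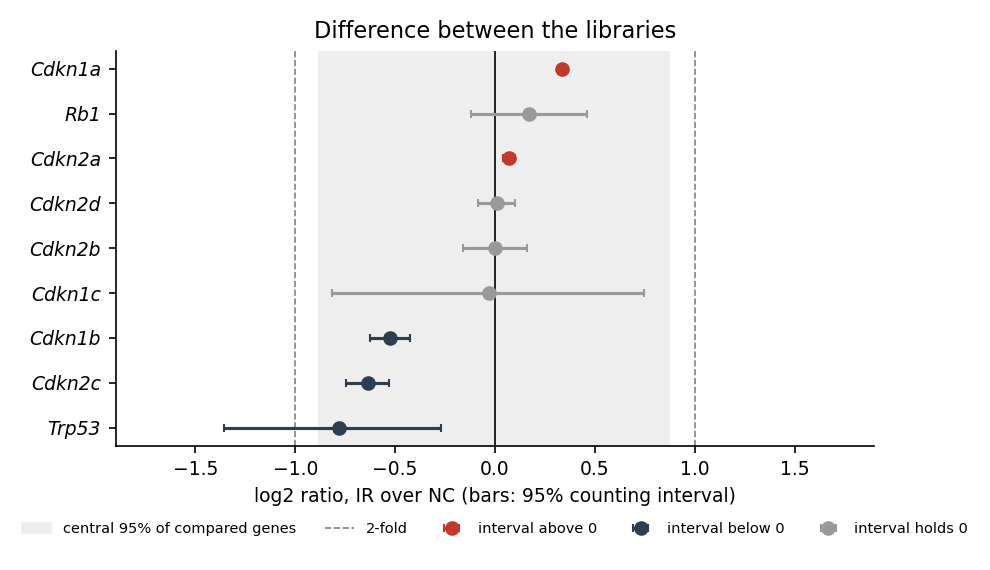
Log2 ratio of IR over NC (x axis) for each of the 9 genes, with 95% counting intervals, red where the interval lies above 0, dark where it lies below 0 and grey where it holds 0. The grey band spans the central 95% of all compared genes (-0.88 to 0.87) and the dashed lines mark 2-fold, and every one of the 9 points lies inside the band.

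Levels of different genes were compared as CPM per kilobase of exon sequence. On this scale Cdkn2a was the most abundant member, with 475 in IR (interval 469 to 482) against 453 in NC (446 to 459). Among the 14584 genes with an annotated length it ranked at place 116 in IR and 115 in NC. Cdkn1a followed with 369 in IR (366 to 373) and 292 in NC (289 to 295), at places 152 and 183. Both thus stood among the most abundant 1.25% of genes in each library. The order of this pair rests on the length used: with the longest transcript in place of all exons, Cdkn1a reached 631 in IR against 623 for Cdkn2a in IR, while in NC Cdkn1a at 499 stayed below Cdkn2a at 593.

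The other inhibitors followed at a distance. Cdkn2d had 33.5 CPM per kilobase in IR and 33.3 in NC, so Cdkn1a lay 11.0 times above it in IR and 8.78 times above it in NC. In IR came next Cdkn2b (12.9), Cdkn2c (11.9) and Cdkn1b (8.37), and in NC Cdkn2c (18.5), Cdkn2b (12.9) and Cdkn1b (12.1). Cdkn2c passed below Cdkn2b in IR, where their intervals overlap, whereas in NC it lay above Cdkn2b without overlap. Cdkn2b and Cdkn1b overlapped in NC and stood apart in IR.

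Rb1 (0.991 in IR and 0.881 in NC), Trp53 (0.326 and 0.570) and Cdkn1c (0.408 and 0.417) were at the bottom. The intervals of Trp53 and Cdkn1c overlapped in both libraries, so their order is not settled at this depth. The median over all genes with a length was 1.78 in both libraries, above each of these 3 genes. Trp53 ranked at place 10122 in IR and 9321 in NC. Per length, Cdkn1a exceeded Trp53 by 1133 times in IR and 513 times in NC.

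Taken per length, the 7 inhibitors summed to 912 CPM per kilobase in IR and 822 in NC. Cdkn2a made up 52.1% of this sum in IR and 55.1% in NC, and Cdkn1a 40.5% and 35.5%. Cdkn2d supplied 3.67% and 4.05%, and none of the other 4 inhibitors more than 2.24% in either library. Within the CIP/KIP class Cdkn1a supplied 97.1% of the reads in IR (95% Clopper-Pearson interval 97.0 to 97.3) against 94.9% in NC (94.7 to 95.1), and Cdkn1b 2.82% and 5.02%. Shares of reads take no account of length. Per length the shares were 97.7% and 95.9% for Cdkn1a and 2.21% and 3.96% for Cdkn1b. The ratio of Cdkn1a to Cdkn1b per length was accordingly 44.1 in IR and 24.2 in NC. Within the INK4 class Cdkn2a took 84.5% of the reads in IR (84.0 to 84.9) against 81.6% in NC (81.1 to 82.1), and Cdkn2c 4.83% and 7.62%. Per length the shares were 89.1% in IR and 87.5% in NC for Cdkn2a, and 2.22% and 3.57% for Cdkn2c.

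**Figure D3:**
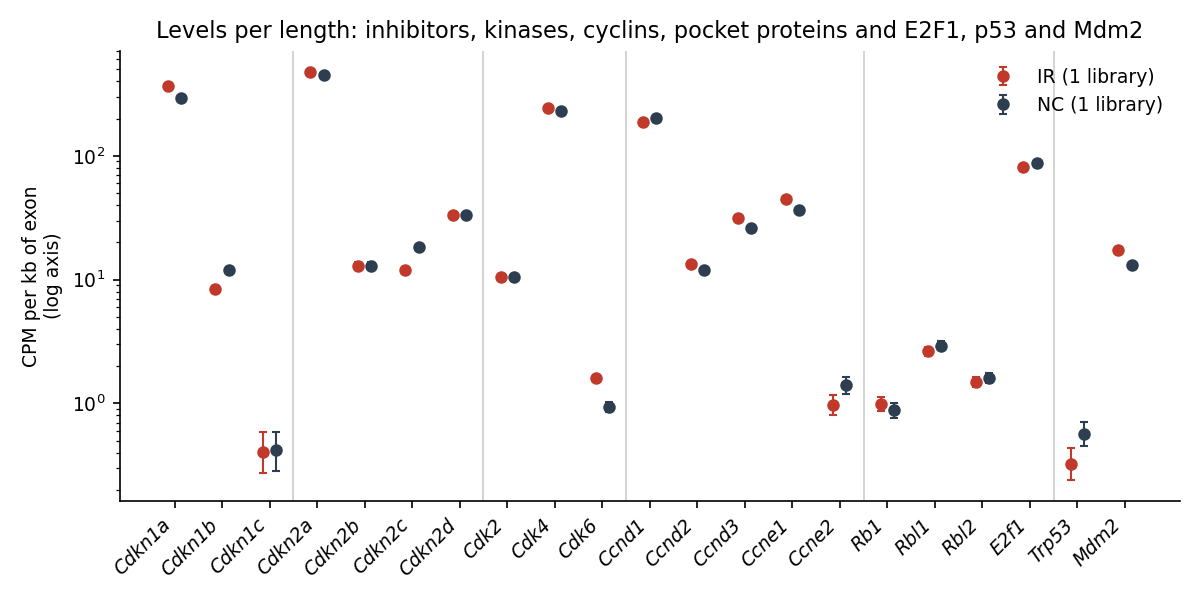
CPM per kilobase of exon sequence (log axis) in the IR library (red) and the NC library (dark), with 95% Poisson intervals, for the CIP/KIP inhibitors, the INK4 inhibitors, their kinases, the cyclins, the pocket proteins with E2f1, and Trp53 with Mdm2. Cdkn2a at 475 in IR and 453 in NC and Cdkn1a at 369 and 292 are above Cdk4 at 244 and 228, while Rb1 and Trp53 are near or under 1.

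The kinases that these inhibitors bind differed widely in level. Per length Cdk4 had 244 CPM per kilobase in IR and 228 in NC, Cdk2 10.6 and 10.5, and Cdk6 1.59 and 0.932. Cyclin D1 (Ccnd1) had 189 in IR and 201 in NC, while 19.7% of the exon sequence of Cdk4 and 23.4% of that of Ccnd1 overlap other genes. The list of cyclins and kinases of G1 and S phase also held Ccnb1, Cdk1, Cdc25a and Mnat1. Of its 16 genes 15 were compared. The interval lay above 0 for 8, Ccnb1 and Cdk1 among them, and below 0 for 3, with a median log2 ratio of 0.09. Here and for the lists that follow, the shares over all compared genes were 31.2% above and 32.4% below 0, with a median of -0.00686. Ccnb1, the mitotic cyclin B1, was the 1 gene of this list at least 2-fold different, with 1048 reads in IR against 452 in NC and a log2 ratio of 1.27 (interval 1.12 to 1.44). Other annotated transcripts share 23.4% of its 50-base words. Ccna2 (cyclin A2, 0.91, with 12.5% of its exon sequence in an overlap) and Cdk6 (0.77) were next. At the other end were Cdc25a, a phosphatase that activates Cdk2 (-0.11, interval -0.24 to 0.02), Ccnh, the cyclin of the CDK-activating kinase (-0.13), and Ccne2 (cyclin E2, -0.52, with 17.4% in an overlap). The higher Ccnb1 and Ccna2 thus stood in the same library as the lower Cdkn1b and Cdkn2c and the higher Cdkn1a. The part of the share of dividing cells in these differences was not tested.

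The relatives of RB and the E2F factors differed little. Rbl1 (p107) had 2.65 CPM per kilobase in IR and 2.93 in NC, and Rbl2 (p130) 1.49 and 1.60, both above Rb1 in each library, though 21.0% of the exon sequence of Rbl2 overlaps other genes. E2f1, the activating E2F that RB restrains, was far more abundant, with 81.8 in IR against 86.8 in NC (log2 ratio -0.09, interval -0.13 to -0.04). Of the 16 compared genes of 18 listed the interval lay above 0 for 2 and below 0 for 4, with a median of 0.08 and none 2-fold different. The highest were Lin52, a subunit of the DREAM repressor complex (0.43), Mybl2, the B-Myb factor of late S phase (0.33, with 19.3% of its 50-base words shared), and E2f3 (0.17, interval -0.04 to 0.39). The lowest were E2f4, the main repressive E2F (-0.19), Tfdp2, a dimer partner of E2F (-0.24), and Lin54, a DREAM subunit that binds DNA (-0.24, interval -0.54 to 0.06).

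Genes that control p53 stood on both sides of 0, and several were higher in the IR library, in which Trp53 itself was lower. Mdm2, the ubiquitin ligase of p53 and itself a p53 target, had 3075 reads in IR against 2428 in NC, a log2 ratio of 0.40 (interval 0.33 to 0.48). Ppm1d, the phosphatase Wip1 that ends damage signalling, was the highest (0.62, from 614 and 417 reads), and Trp53bp1, a protein of DNA break repair, reached 0.40 with 15% of its exon sequence in an overlap. Of the 11 compared genes under 16 listed symbols, of which Cop1 and Rfwd2 name the same gene, the interval lay above 0 for 5 and below 0 for 2, with a median of 0.14. Rchy1 and Rfwd2 encode the further p53 ligases Pirh2 and Cop1. Rchy1 was the 1 gene at least 2-fold lower, from 16 reads in IR against 41 in NC (-1.20, interval -2.23 to -0.43), and 18.0% of its exon sequence overlaps another gene. Rfwd2 had 180 and 285 reads (-0.60, with 11.2% of its 50-base words shared), and the damage kinase Atm, the next lowest, 198 and 203 reads (0.03, interval -0.26 to 0.32). Mdm4, the partner of Mdm2 and named after its value was seen, had 0 reads in IR and 2 in NC, under the floor of 3 reads, which corresponds to 0.0860 CPM in IR against 0.0824 CPM in NC.

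Per length, the compared targets of p53 stood above Trp53 in both libraries, except Rrm2b (0.22 CPM per kilobase in IR and 0.24 in NC, with 10.7% of its 50-base words shared). Most genes did so: Trp53 ranked at place 10122 in IR and 9321 in NC among 14584 genes. The minimum of 50 reads had also left out Polk, with 0 reads in IR and 1 in NC. The order is thus no trait of p53 targets. Of the 24 compared targets of 26 listed the interval lay above 0 for 12 and below 0 for 6, with a median log2 ratio of 0.09 and none 2-fold different. The polo-like kinase genes Plk2 (7086 reads in IR and 4561 in NC, 0.70) and Plk3 (7956 and 5306 reads, 0.65) and the cyclin G1 gene Ccng1 (1397 and 960 reads, 0.60) were highest. Sesn1, a stress-induced regulator of mTORC1 (-0.34), Trp53inp1, which binds p53 (-0.73), and Xpc, a damage sensor of nucleotide excision repair (537 and 944 reads, -0.75), were lowest. The ratio of Cdkn1a, 0.34, lay inside this range of -0.75 to 0.70.

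Proteins of the CIP/KIP class are controlled largely by breakdown, and the genes of that machinery had both directions. Of the 12 compared genes of 13 listed the interval lay above 0 for 3 and below 0 for 3, with a median of -0.00138. Skp2, the F-box protein that marks p27 for breakdown, had 309 reads in IR against 265 in NC (0.28, interval 0.04 to 0.53), and its cofactor Cks1b 7258 and 6330 reads (0.26). Cul4b was nominally highest at 0.35, from 69 and 56 reads, with an interval of -0.17 to 0.90. Cul4a, a scaffold of the ligase that removes p21 in S phase, was lowest (999 and 1545 reads, -0.57, interval -0.68 to -0.45). Fbxw7, the F-box protein for cyclin E, had -0.39 (interval -0.82 to 0.03), and Rnf123, a ligase for p27 in G1, -0.33, where 18.0% of the exon sequence lies in an overlap.

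Among the 25 listed and compared regulators of transcription known for acting on CDK inhibitor genes, the interval lay above 0 for 8 and below 0 for 6, with a median of 0.05. Myc, which represses Cdkn1a together with Zbtb17 and induces Arf, had 25788 reads in IR against 15511 in NC, a log2 ratio of 0.80 (interval 0.77 to 0.82), the highest of the list. Smad2 (0.49), which carries TGF-beta signals, and Id1 (0.42), an inhibitor of factors that activate p16, followed. Kdm2b (-0.43), a histone demethylase, and Cbx7 (-0.36), a Polycomb protein, are both known to silence the Cdkn2a locus and were among the lowest with Smad3 (1670 and 2312 reads, -0.41). Other annotated transcripts share 12.5% of the 50-base words of Kdm2b. Other listed genes of Polycomb complexes, named after their values were seen, had no common direction: Cbx8 (-0.14) and Ring1 (-0.16) were lower in IR, and Ezh2 was higher (0.17, interval 0.0047 to 0.33). The intervals of Suz12 (0.05), Eed (0.13), Rnf2 (0.08) and Bmi1 (-0.18, with 16.7% of its 50-base words shared) held 0.

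**Figure D4:**
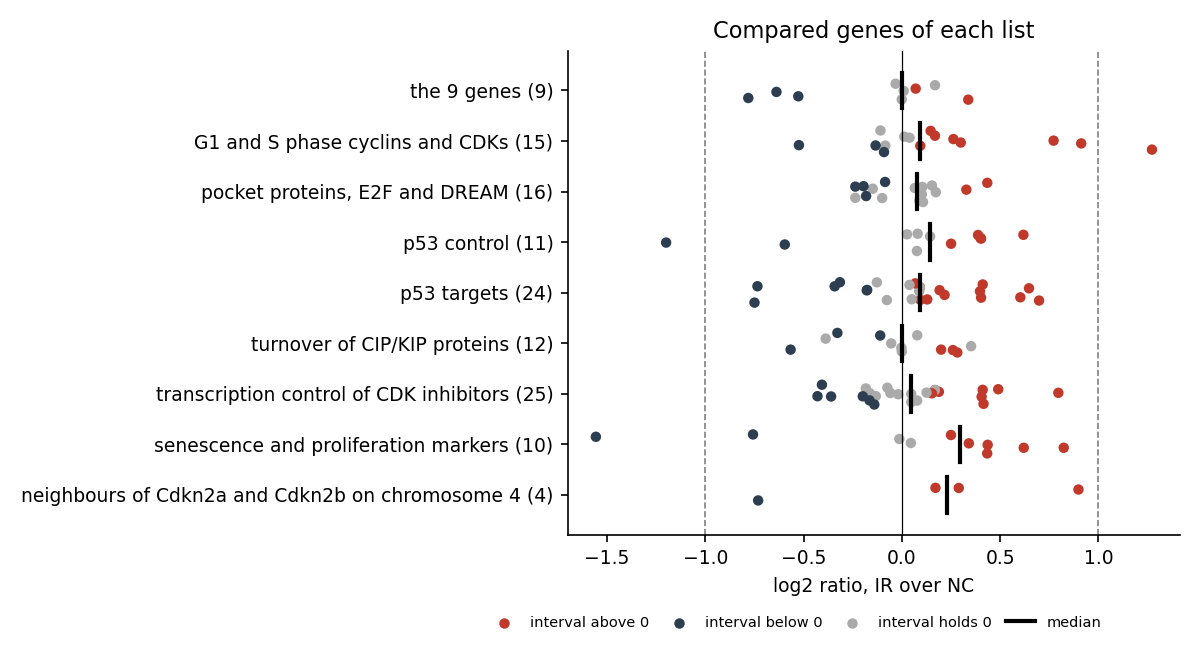
Log2 ratio of IR over NC (x axis) of each compared gene, by list, with the number compared in brackets and the median as a black bar, red where the counting interval lies above 0, dark where it lies below 0 and grey where it holds 0. The median of the 9 genes is at -0.000596, and Ccnb1, Rchy1 and Glb1 are the points beyond the dashed 2-fold lines.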

How the data were processed

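Per the file headers, the values the authors deposited are unnormalised counts of reads by gene, a column per library. Build mm10, HISAT2, cutadapt 1.9.3, edgeR and HTSeq 0.9.1 are named in the submitters' processing notes. The annotation release and the strand setting are not given in the sources used here, so an overlap with other genes is given where it takes in 10% of a gene's exon sequence or more. A further 2 value columns were not used. Scaling used TMM (edgeR 4.0.16, R 4.3.3), with factors of 0.991 for IR and 1.01 for NC. Log2 ratios of IR over NC used a prior count of 2, and genes with at least 50 reads over both libraries were compared. Intervals are exact at 95%, Clopper-Pearson for the split of a gene's reads between libraries and Poisson for levels (SciPy 1.17.1). A call of 2-fold different needed an interval without 0 and a log2 ratio of 1 or more in size. Positions and exon lengths were read from GENCODE vM21 (GRCm38), where 14584 of the 14694 identifiers were found (99.3%). The procedure was tested on simulated counts with counting noise only. That simulation held no variation between libraries, so it cannot show how the calls would hold in replicates. The alternatives were other scalings, prior counts, read minimums, fold rules, thinning and centring.

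The members and gene lists were chosen with earlier results of these data known. Lists were matched by the symbol in the table, so a gene that the table gives under an older symbol was not counted. Named are all members, up to 3 compared genes at each end of each list (1 at each end of a list with under 6), any past the 2-fold rule, and the 3 genes nearest to Cdkn1a in log2 CPM. A gene that this rule names is not reported here. Other genes, such as the partners of the members whose levels are given, were chosen after their values were seen.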

Additional observations from a re-analysis of the deposited data

How the results depend on the processing

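With 1 library in each group no library could be left out. No paired analysis was possible because the groups share a single replicate number. Under 9 alternatives of scaling, prior count, thinning and centring, the log2 ratio ran from 0.29 to 0.36 for Cdkn1a, -0.57 to -0.50 for Cdkn1b, -0.66 to -0.61 for Cdkn2c and -0.81 to -0.72 for Trp53. Cdkn2a ran from -0.08 to 0.10: centring on length and GC content turned it to -0.081, with an interval wholly below 0 (-0.110 to -0.052). This left 1 member with an interval above 0 in place of 2, and 4 with an interval below 0 in place of 3. The cause was not tested. Cdkn1c, Cdkn2b and Cdkn2d changed sign among the alternatives, with intervals that held 0. No scaling moved the median of all genes by more than 0.0274. Genes at least 2-fold higher and lower in IR numbered 175 and 199, against 584 and 606 with no filter, 73 and 71 with a minimum of 200 reads, 665 and 754 at 1.5-fold, and 10 and 14 at 4-fold. At 1.5-fold 2 members were called in place of 0. The minimum of 200 reads leaves out Trp53 and Cdkn1c, whose few reads limit what can be seen. The mean over the members was -0.15.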

Other observations

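The genes around Cdkn2a and Cdkn2b on chromosome 4 were measured as well. Mtap, the gene of a methionine salvage enzyme that neighbours the locus, had 4624 reads in IR against 4289 in NC, a log2 ratio of 0.17 (interval 0.11 to 0.23), and lay far below Cdkn2a per length, at 41.1 and 36.5 CPM per kilobase. Of the 4 compared neighbours of 7 listed 3 had an interval above 0 and 1 below. Mllt3, a subunit of elongation complexes, was highest (82 reads in IR and 45 in NC, 0.90) and Klhl9, a ligase adaptor, lowest (196 and 341 reads, -0.73), where 15.8% of the exon sequence lies in an overlap. Dmrta1 had 6 reads in IR and 0 in NC, and Elavl2 2 and 14.

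The list of senescence and proliferation markers joins genes of opposite meaning, so its count has no single direction. Of the 10 compared of 14 listed, 6 had an interval above 0 and 2 below, with a median log2 ratio of 0.30. Of the 6, 3 were proliferation genes: Mki67, Top2a and Pcna (19.1% of its 50-base words shared). The other 4 listed genes had too few reads to compare: Il6 had 21 in IR and 11 in NC, Cxcl1 13 and 5, Serpinb2 5 and 7, and Igfbp3 1 and 2. The highest of the compared genes were Igfbp7, a secreted binding protein (154 reads in IR and 90 in NC, 0.82), and the proliferation marker Mki67 (834 and 566 reads, 0.62). Glb1, the gene of the lysosomal galactosidase used to stain senescent cells, was at least 2-fold lower in IR (29 and 93 reads, -1.56). Hmgb2, a chromatin protein that senescent cells lose, was also lower (2596 and 4582 reads, -0.76), though 18.7% of its 50-base words occur in other genes. Mcm2, part of the replicative helicase, was level (24421 and 25728 reads, -0.01).

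The 3 genes nearest to Cdkn1a in log2 CPM over the 2 libraries were Sars (distance 0.125), Arhgdia (0.132) and Rpl31 (0.135). With 2 libraries, nearness says only that both values are alike.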
